A study of Caenorhabditis elegans with 48 samples.

Results

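The C-type lectin genes of Caenorhabditis elegans, named clec genes, were followed through starvation of the first larval stage (L1 arrest). A gene was included when its symbol was clec- followed by a number and its level exceeded 1 CPM (the count scaled to a fixed number of gene counts per library) in 4 or more of 48 libraries. Of the 264 clec genes in the count tables, 161 met this rule, among 16987 genes of any kind that passed the same level. Another 50 clec genes exceeded 1 CPM in 1 to 3 libraries and 53 did so in none. The 13 genes just outside the rule, over 1 CPM in 3 libraries, reached at most 2.03 CPM. The 11 genes just inside it, over 1 CPM in exactly 4 libraries, reached at most 2.18 CPM.

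A C-type lectin domain is a protein fold that in many animals binds carbohydrates, often with the help of calcium. C. elegans has a large family of such genes, many of which encode predicted secreted proteins, and several are known to be induced in the intestine by bacterial infection. Some of these are used as readouts of the p38 MAP kinase pathway of innate immunity. Most family members have no assigned role.

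The libraries were poly(A) mRNA-seq of whole wild-type N2 animals. Embryos were released from gravid adults with hypochlorite and kept in S-basal buffer without food. The 12 time points were 2 h before the nominal hatch (-2 h), the hatch itself (0 h), early larvae at 2, 4, 6, 9 and 12 h, and longer arrest at 24, 48, 96, 192 and 288 h. Each had 4 biological replicates, numbered 1, 5, 6 and 8. No fed animals, mutants or treatments other than lack of food were included, and the labels call every library L1 larvae although -2 h precedes the nominal hatch. Per the study's methods, 3 of the replicates were each a single culture sampled at every time point and the other combined several cultures. By the study's counts many larvae hatched after 0 h, most were alive at 192 h and most had died by 288 h. In whole animals, fewer cells of a type and less RNA per cell cannot be told apart, and at 288 h change in living larvae and loss of RNA from dying ones cannot be told apart.

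Libraries held 10164115 to 15962842 gene counts. Genes annotated as ribosomal RNA took a median of 2.998% of them, but 46.4% in the -2 h library of replicate 6 and 27.4% in the 24 h library of replicate 8, with 9.31% the next highest share. The level of a gene is given below as CPM scaled with TMM factors, as mean and SD over 4 replicates. CPM is a share of the counts of a library, so a change in it is relative and does not give RNA per larva. In a separate experiment of the study, total RNA per larva declined late in starvation, and mRNA fell roughly along with it. Pairs of time points were compared with the edgeR quasi-likelihood F test, 2-sided, with Benjamini-Hochberg adjustment over all 16987 genes (FDR, threshold 0.05).

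The 161 genes covered a wide range of levels. Their mean over the 48 libraries was at least 10 CPM for 39 genes, from 2 to under 10 for 47 and under 2 for 75. Only 30 exceeded 1 CPM in all 48 libraries, and 30 did so in no more than 8. The current annotation lists 149 as protein coding and 12 as pseudogenes. They lie on chromosomes V (56 genes), IV (41), II (30), I (19), III (12) and X (3).

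clec-63 was by far the most abundant member per length, with a mean of 1102 CPM per kb of exon against 249 for clec-1, 174 for clec-65, 144 for clec-50, 96.5 for clec-146 and 83.0 for clec-17. Its level was 823, 895, 433 and 859 CPM at -2 h in replicates 1, 5, 6 and 8. At 6 h, the time of its highest mean, it was 1510, 2480, 1914 and 2148 CPM, above every -2 h library. At 288 h it was 299, 492, 325 and 343 CPM, below every library of any other time point except the -2 h library of replicate 6. By the tests it rose from -2 to 0 h (log2 change 0.61, SE 0.19, FDR = 0.0134) and from 0 to 12 h (0.47, FDR = 0.0368), and fell from 24 to 192 h (-0.59, FDR = 0.00918) and again by 288 h. The first rise rests in part on the -2 h library of replicate 6, which was rich in ribosomal RNA. clec-63 alone made up 32.8% of the summed level of the clec genes at -2 h, 48.5% at 48 h and 29.2% at 288 h.

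The mean summed level of the 161 genes was highest at 6 h, was lower at 12 h in all 4 replicates, lay between 3393 and 3653 CPM from 12 to 96 h and was lowest at 288 h. It was 2290 ± 382 CPM (SD, n = 4) at -2 h, 3006 ± 612 at 0 h, 4675 ± 697 at 6 h, 3522 ± 438 at 12 h, 3653 ± 279 at 48 h, 2685 ± 181 at 192 h and 1250 ± 169 at 288 h. Without clec-63 the sum followed the same course, from 1538 ± 169 at -2 h through 2662 ± 314 at 6 h to 886 ± 83.2 at 288 h. Replicate 1 had the lowest sum of the 4 from 0 to 24 h and again at 192 and 288 h, and replicate 6 had the lowest at -2 h.

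**Figure D1:**
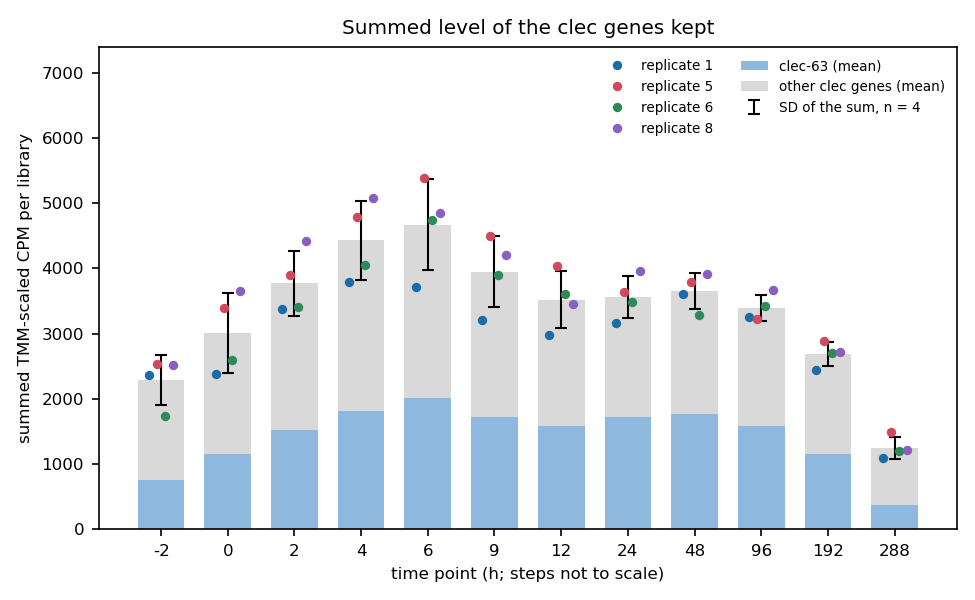
Summed TMM-scaled CPM of the 161 clec genes per library (points, coloured by replicate) at each time point in hours, with bars for the mean of clec-63 and of the other members stacked and error bars for the SD of the sum (n = 4). The mean sum is highest at 6 h (4675 CPM) and lowest at 288 h (1250 CPM), and all 4 libraries at 288 h lie below those of every other time point.

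When each gene had its highest mean level was then set against the same count over all genes kept, as a description without a test. From 2 to 9 h fell the highest mean of 71 of the 161 clec genes (44.1%), compared with 18.9% of all genes. Among genes with a mean of at least 10 CPM this was 25 of 39 clec genes (64.1%) and 17.9% of all such genes. The single time points with most clec genes were 4 h (25 genes, 15.5% against 5.16% of all genes) and 288 h (25 genes, 15.5% against 21.7%). The ends of the series were less often the highest: -2 and 0 h together held 15.5% of clec genes against 29% of all genes. None of the 39 clec genes with a mean of at least 10 CPM was highest at 288 h, where 19.8% of all genes of that level were. The 25 clec genes highest at 288 h were mostly low: only clec-12, clec-145 and clec-221 among them had a mean of at least 2 CPM, a group named here after its values were seen. Without both libraries rich in ribosomal RNA, 70 of the clec genes were highest from 2 to 9 h.

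**Figure D2:**
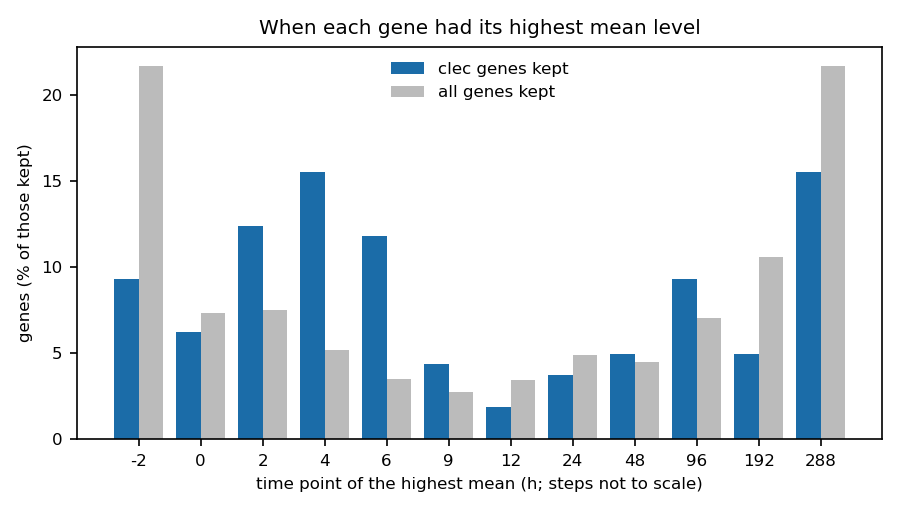
Share of genes (%) whose highest mean TMM-scaled CPM fell at each time point, for the 161 clec genes and for all 16987 genes kept. The clec bars exceed those of all genes from 2 to 9 h and are lower at -2 h (9.32% against 21.7%) and 288 h (15.5% against 21.7%).

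**Figure D3:**
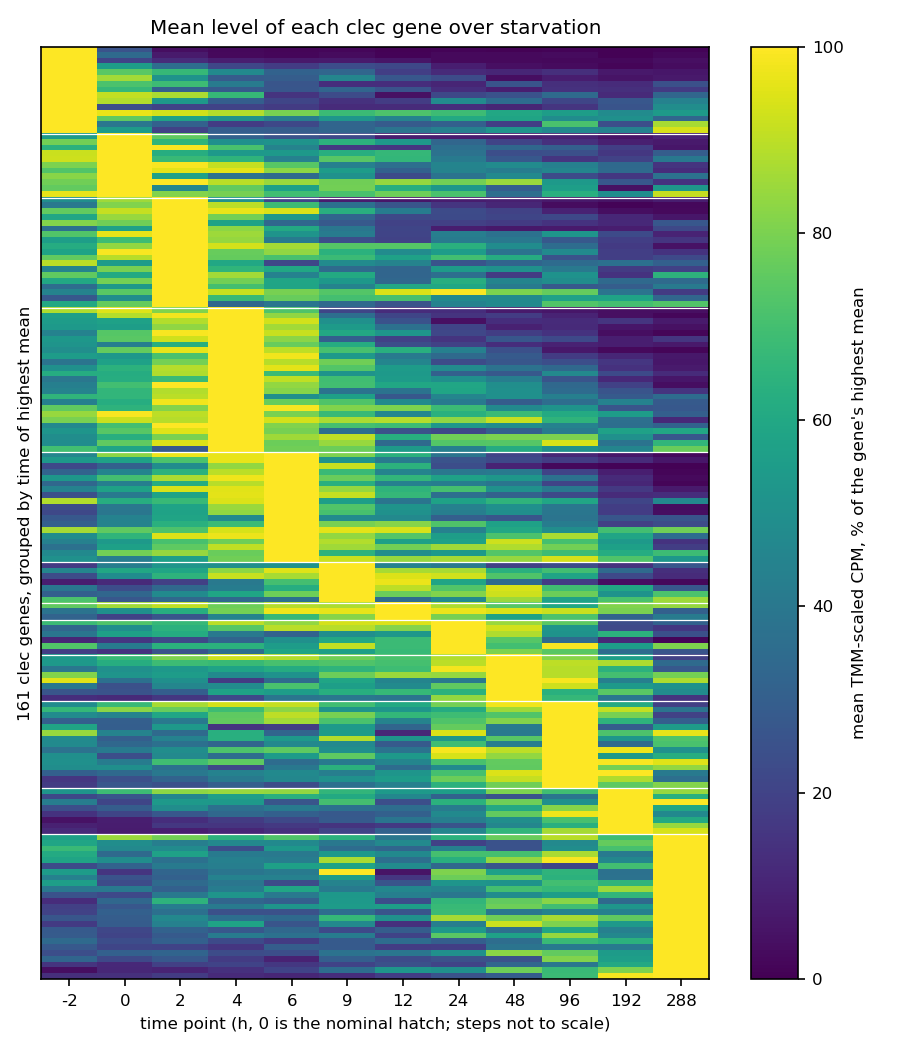
Mean TMM-scaled CPM of each of the 161 clec genes (rows, grouped by the time point of the highest mean) at the 12 time points in hours (columns), as a percentage of the gene's highest mean. The largest blocks are at 4 h and 288 h, with 25 genes each, and 15 genes are highest at -2 h.

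Over all 12 time points, 126 of the 161 clec genes (78.3%) changed by the edgeR likelihood ratio test, beside 84.9% of all 16987 genes. The share followed the level of the genes. It was 39 of 39 for a mean of at least 10 CPM, 46 of 47 from 2 to under 10 CPM and 41 of 75 below that, beside 95.9%, 88.1% and 60.3% of all genes at those levels. Members that entered through a single time point of high level had to differ, so these counts are a description of the family and no support for a response. The same holds below where a compared time point is one through which a member entered.

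The 5 comparisons that follow tile the series, and neighbouring ones share the 4 libraries of the time point between them. Around the nominal hatch, 0 h against -2 h, 16 clec genes were higher and 5 lower, 13% of the 161, beside 23.8% of all genes. By direction, 9.94% of clec genes rose beside 11.5% of all genes, and 3.11% fell beside 12.3%. The median log2 change of the clec genes was 0.24, and that of all genes 0.03. By level, 14 of 39, 6 of 47 and 1 of 75 members were called, from the highest level to the lowest, beside 33.1%, 22.5% and 7.09% of all genes. The count of rises depended on single libraries: without both ribosomal-RNA-rich libraries 4 genes were higher and 4 lower, without replicate 5 there were 7 higher, without replicate 8 there were 6, and without replicate 1 there were 23. Tissue marker lists went either way at 0 h. The 8 intestine markers summed to 2050 to 2992 CPM per library at -2 h and 2869 to 4206 CPM at 0 h, with 3 called higher. The 5 pharynx markers summed to 3615 to 5328 and then 6392 to 7248 CPM, with 3 called higher, and the 4 body wall muscle markers kept to 6845 to 9700 and then 9034 to 11910 CPM, with 1 called higher. Of the 5 epidermis markers 1 was called higher and 3 lower, and of the 2 coelomocyte markers 1 was lower. No neuron or germline marker was called. The part of tissue RNA in the changes of clec genes was not tested.

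A handful of clec genes was high before hatching and fell steeply. clec-180 stood at 36.6, 91.8, 94.7 and 42.8 CPM at -2 h and at 14.8, 10.0, 18.4 and 11.5 CPM at 0 h, so that no library of one time point reached those of the other. Its log2 change was -2.28 (SE 0.32, FDR = 4.9e-07), and it fell by a further 1.83 on the log2 scale from 0 to 12 h (FDR = 1.42e-05). clec-230 went from 47.4, 38.3, 45.4 and 64.6 CPM at -2 h to 5.54, 14.9, 22.1 and 7.13 CPM at 0 h, a log2 change of -1.98 (SE 0.35, FDR = 3.58e-05). By 12 h clec-230 was between 0 and 0.534 CPM, a further log2 change of -5.35 (SE 0.50, FDR = 3.36e-12), and its mean stayed at or below 0.539 CPM from 12 to 288 h. clec-225 fell from 12.1 ± 6.40 to 2.91 ± 0.922 CPM (log2 change -2.05, SE 0.30, FDR = 1.39e-06). The same gene was one of the few higher at 288 h. The remaining genes that fell were clec-264, which later rose, and clec-229, named after its values were seen (8.43 ± 2.36 to 2.92 ± 1.29 CPM, log2 change -1.53, FDR = 0.0272). hch-1, which encodes the hatching enzyme, stood at 26.9 ± 14.8 CPM at -2 h and 11.1 ± 5.50 CPM at 0 h, and its change did not pass the test.

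The largest rises at 0 h were in clec-52 and clec-42, both on the list of infection genes described further on. clec-52 rose from 2.62, 4.23, 1.26 and 2.68 CPM to 8.06, 5.61, 3.99 and 4.86 CPM (log2 change 1.01, SE 0.26, FDR = 0.00335). clec-42 rose from 11.5, 16.2, 10.8 and 27.2 CPM to 32.7, 31.7, 20.9 and 47.4 CPM (log2 change 1.00, SE 0.28, FDR = 0.00722). For both genes the time points overlapped, although each replicate number rose. clec-15, clec-5 and clec-13 were also higher, by log2 changes of 0.84, 0.84 and 0.75, but without the ribosomal-RNA-rich libraries, which leaves fewer samples, the log2 changes were 0.69, 0.66 and 0.57 and none passed the test (FDR = 0.0849, 0.0777 and 0.178). clec-42 lost its call without replicate 1, at a log2 change of 0.87 (FDR = 0.0513).

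From 0 to 12 h, which spans the hatching of many larvae, 22 clec genes rose and 34 fell. These were 34.8% of the 161, beside 45.4% of all genes, with 13.7% higher beside 22.2% and 21.1% lower beside 23.3%. By level, 20 of 39, 20 of 47 and 16 of 75 members were called, beside 60.6%, 44.1% and 17.2% of all genes. The median log2 change was -0.16 for clec genes and -0.02 for all genes.

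Among the genes that fell, clec-64 was close to gone by 12 h, and clec-4 was low but still present. clec-64 stood at 6.10, 5.85, 5.12 and 7.57 CPM at 0 h and at 0.530, 0.146, 0.868 and 0.224 CPM at 12 h (log2 change -3.75, SE 0.39, FDR = 5.18e-11). clec-4 went from 13.04, 32.5, 34.4 and 34 CPM to 1.33, 3.36, 6.01 and 4.40 CPM (log2 change -2.92, SE 0.46, FDR = 8.4e-07). In both genes every 12 h library lay below every 0 h library. clec-173 fell from 21.8 ± 5.24 to 3.44 ± 0.978 CPM (log2 change -2.66, SE 0.26, FDR = 1.49e-11) and clec-165 from 4.14 ± 1.45 to 0.869 ± 0.420 CPM (log2 change -2.23, SE 0.33, FDR = 1.95e-07).

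Among the genes that rose, clec-146 and clec-264 began a climb in relative level that lasted for days. clec-146 went from 12.5, 15.5, 11.7 and 16.8 CPM at 0 h to 67.9, 50.7, 65.4 and 81.8 CPM at 12 h (log2 change 2.23, SE 0.17, FDR = 5e-15). clec-264 went from 7.92, 8.32, 7.64 and 7.70 CPM to 32.2, 29.8, 27.8 and 38.97 CPM (log2 change 2.03, SE 0.15, FDR = 6.12e-15). These were the 2 smallest FDR values among the named rises, and neither gene's time points overlapped. clec-61 rose from 2.04 ± 1.12 to 16.5 ± 2.97 CPM (log2 change 3.0, SE 0.35, FDR = 9.36e-10). clec-76 rose from 7.01 ± 2.69 to 30.4 ± 3.63 CPM (2.11, SE 0.26, FDR = 2.97e-09), and clec-82 from 1.02 ± 0.749 to 4.70 ± 1.68 CPM (2.18, SE 0.46, FDR = 9.92e-05). clec-61 and clec-76 both fell again later.

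The second 12 h brought less change. From 12 to 24 h, 6 clec genes rose and 10 fell, 9.94% of the 161 beside 9.55% of all genes, with 3.73% higher beside 4.26% and 6.21% lower beside 5.3%. By level, 7 of 39, 8 of 47 and 1 of 75 members were called, beside 15.5%, 5.74% and 1.64% of all genes. The split depended on the scaling and on the fit: it was 2 higher and 16 lower without scaling factors, and 12 higher with the replicate number as a block. Without replicate 5 there was 1 higher gene and without replicate 8 there were 2.

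clec-1, the second most abundant member per length, gave the clearest fall. It stood at 199, 356, 352 and 329 CPM at 12 h and at 105, 80.9, 145 and 122.2 CPM at 24 h, with no overlap (log2 change -1.45, SE 0.21, FDR = 4.55e-06). clec-139 fell from 1.45 ± 0.354 to 0.231 ± 0.101 CPM (-2.59, SE 0.48, FDR = 0.000195), clec-51 from 17.5 ± 3.31 to 7.01 ± 1.17 CPM (-1.32, FDR = 0.000199) and clec-12 from 7.83 ± 1.28 to 3.21 ± 0.691 CPM (-1.30, FDR = 5.32e-05). clec-218 fell as well, by 1.40 on the log2 scale (FDR = 0.00271). clec-139 and clec-12 rose again by 192 h.

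The rises from 12 to 24 h were at most 2.3-fold among the genes named by the rule. clec-173 recovered from 3.44 ± 0.978 to 7.94 ± 1.13 CPM (log2 change 1.2, SE 0.27, FDR = 0.00193). clec-264 rose to 46.3 ± 3.94 CPM (0.52, FDR = 0.0117), clec-65 to 287 ± 37.9 CPM (0.50, FDR = 0.0242) and clec-62 to 76.7 ± 8.94 CPM (0.63, FDR = 0.0249). The calls of these 3, and that of clec-165 (1.06, FDR = 0.0403), were lost without scaling factors (log2 changes 0.3, 0.25, 0.39 and 0.85 in this order) and without replicate 5 (0.48, 0.54, 0.69 and 0.96). The remaining gene, clec-236, was at the counting floor at 12 h and is given no fold.

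The long arrest from 24 to 192 h, while most larvae were alive, changed the relative level of more of the family, mostly downwards. Of the 161 clec genes 13 rose and 50 fell, 39.1% beside 39.7% of all genes. By direction, 8.07% rose beside 19.4% of all genes and 31.1% fell beside 20.3%. The median log2 change was -0.60 for clec genes and -0.05 for all genes. Among members with a mean of at least 10 CPM, 6 rose and 27 fell, 33 of 39 (84.6%) beside 55.3% of all genes of that level, with a median of -1.26. Below that level 24 of 47 and 6 of 75 were called, beside 36.3% and 12.3%.

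clec-1 showed the deepest loss. It went from 105, 80.9, 145 and 122.2 CPM at 24 h through 11.2 ± 4.304 CPM at 96 h to 3.27, 3.98, 4.90 and 4.03 CPM at 192 h, a 28-fold lower level (log2 change -4.81, SE 0.26, FDR = 4.95e-19). clec-72 went from 21.5, 32.3, 38.1 and 27.9 CPM to 1.26, 0.663, 1.55 and 3.09 CPM (-4.22, SE 0.29, FDR = 7.09e-16). Neither gene's time points overlapped. clec-42 fell from 6.34 ± 1.53 to 0.367 ± 0.212 CPM (-4.05, SE 0.49, FDR = 3.96e-09), clec-61 from 9.96 ± 3.25 to 0.664 ± 0.269 CPM (-3.88, SE 0.42, FDR = 1.71e-10) and clec-76 from 44.5 ± 6.77 to 4.93 ± 1.06 CPM (-3.18, SE 0.27, FDR = 3.59e-13). clec-61 and clec-76 had both been among the largest rises of the first 12 h.

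The genes that rose over the long arrest were fewer. clec-12 rose from 2.70, 3.01, 2.89 and 4.22 CPM to 12.9, 10.3, 13.3 and 14.1 CPM (log2 change 1.99, SE 0.22, FDR = 2.82e-10), and it was highest of all at 288 h (16.6 ± 5.36 CPM). clec-7 rose from 7.25, 11.8, 8.50 and 7.96 CPM to 38.3, 17.3, 31.9 and 25.3 CPM (1.66, SE 0.28, FDR = 3.46e-06). In both genes the lowest 192 h library lay above the highest 24 h library. clec-221 rose from 2.01 ± 0.999 to 7.70 ± 1.57 CPM (1.97, SE 0.34, FDR = 7.14e-06), clec-153 from 1.597 ± 0.253 to 6.13 ± 1.04 CPM (1.93, SE 0.37, FDR = 2.73e-05) and clec-139 from 0.231 ± 0.101 to 0.891 ± 0.357 CPM (1.89, SE 0.51, FDR = 0.00249). clec-146 reached its highest mean, 171 ± 22.1 CPM, at 192 h (log2 change 1.22, FDR = 1.72e-08), as did clec-264 at 102 ± 8.99 CPM (1.14, FDR = 5.62e-09).

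From 192 to 288 h, when most larvae had died, 5 clec genes were higher and 41 lower. These were 28.6% of the 161 beside 24.7% of all genes, with 3.11% higher beside 7.38% and 25.5% lower beside 17.4%. Among members with a mean of at least 10 CPM, 26 of 39 were called, each of them lower, beside 39.3% of all genes of that level, and their median log2 change was -1.14. Below that level 18 of 47 and 2 of 75 were called, beside 16.5% and 4.38%. Over all 161 the median was 0.02. The number higher was 8 with the replicate number as a block and 1 to 3 when single replicates were left out.

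The largest falls were in genes that had been highest at 4 to 24 h. clec-16 stood at 2.97, 2.41, 4.17 and 2.997 CPM at 192 h and at 0.325, 0.566, 0.478 and 0.262 CPM at 288 h (log2 change -2.90, SE 0.37, FDR = 2.97e-08). clec-13 went from 9.36, 14.9, 18.96 and 18.2 CPM to 1.62, 3.397, 3.03 and 2.71 CPM (-2.5, SE 0.34, FDR = 9.87e-08). Both genes fell in each of the 4 replicates without overlap. clec-76 fell by 2.84 on the log2 scale (FDR = 1.6e-07), clec-14 by 2.48 (FDR = 2.63e-06) and clec-209 by 2.39 (FDR = 2.87e-06). clec-63 fell from 982, 1366, 1143 and 1095 CPM at 192 h to 299, 492, 325 and 343 CPM, 3.14-fold lower (log2 change -1.65, SE 0.19, FDR = 3.45e-09).

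The 5 genes higher at 288 h were low throughout the late series. clec-218 rose from 1.26, 1.08, 2.37 and 0.843 CPM to 3.57, 2.67, 4.70 and 4.02 CPM, with no overlap (log2 change 1.41, SE 0.32, FDR = 0.000583). clec-225 went from 3.12 ± 0.905 to 5.91 ± 2.13 CPM (0.92, SE 0.30, FDR = 0.0201, overlapping) and clec-170 from 0.919 ± 0.465 to 2.13 ± 0.655 CPM (1.18, SE 0.41, FDR = 0.0297). clec-170 lost its call when any replicate was left out, at log2 changes of 1.08 to 1.36 (FDR = 0.0541 to 0.110), and clec-225 without replicate 1 (0.8) or replicate 8 (1.03). The other two, named after their values were seen, were clec-242 (0.250 ± 0.104 to 0.908 ± 0.441 CPM, overlapping, FDR = 0.0315) and clec-157, which was at the counting floor at 192 h. clec-264 did not pass the test at 288 h, with 102 ± 8.99 and then 96.1 ± 7.03 CPM (log2 change -0.09, SE 0.14, FDR = 0.702).

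**Figure D4:**
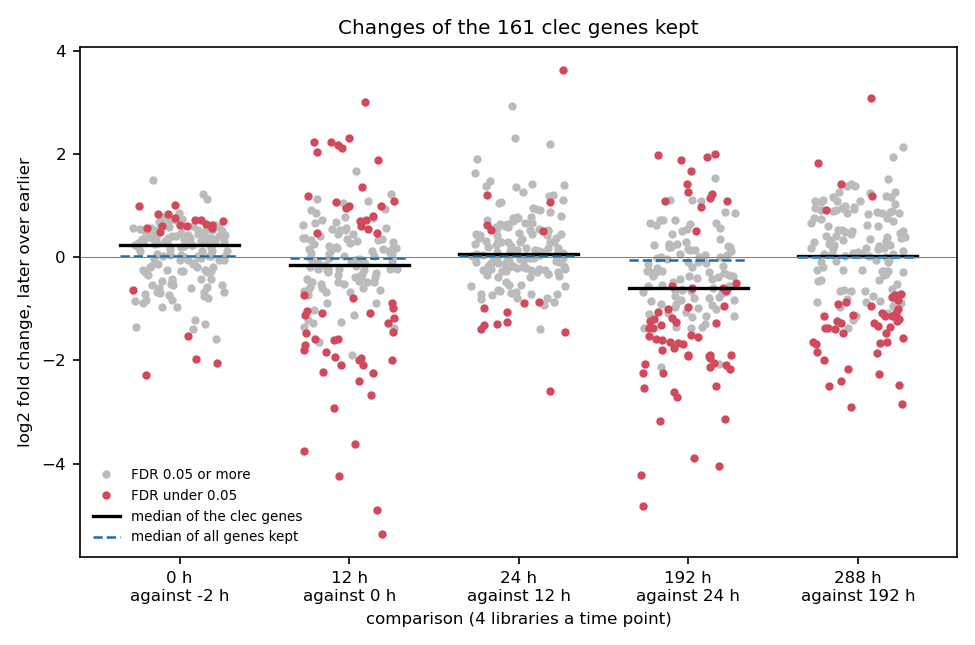
Log2 fold change (later over earlier) of each of the 161 clec genes in the 5 comparisons, red where the FDR was under 0.05, with the median of the clec genes (black line) and of all genes kept (dashed line). The clec median is below that of all genes in 192 h against 24 h (-0.60 against -0.05), and the deepest falls are clec-230 (-5.35) in 12 h against 0 h and clec-1 (-4.81) in 192 h against 24 h, each within its own comparison. clec-236 (3.62) and clec-157 (3.08), at the counting floor at the earlier time point, are drawn at fitted values that are no bound.

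Members that lie next to each other on a chromosome were compared, because the family is clustered. Of the 264 annotated clec genes, 137 had another clec gene as a neighbour in the order of protein-coding genes and pseudogenes, in 45 runs of up to 13 genes. In 25 neighbouring pairs both genes had a mean of at least 2 CPM. The Pearson r over the 12 time means had a median of 0.63 in these pairs and of 0.32 over all 3655 pairs of the 86 clec genes at that level. It was at least 0.9 in 5 of the 25 pairs and in 6.32% of all pairs. The 5 pairs were clec-16 with clec-15, clec-15 with clec-13, clec-13 with clec-14, clec-54 with clec-55 and clec-49 with clec-50. Most of them thus come from the run of clec-16 to clec-14, in which sharing of reads was not tested. The r values are descriptions, since the points share libraries and pairs share genes.

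clec-62, clec-63, clec-64, clec-65 and clec-66 on chromosome II are neighbours in this order, yet had their highest means at 192, 6, 2, 96 and 0 h. Neighbours among them had r of 0.05, -0.10, -0.67 and -0.57. clec-65 rose from 63.6, 63.9, 41.8 and 66.5 CPM at -2 h to 353, 336, 404 and 389 CPM at 96 h. In the same libraries clec-66 went from 55.8, 56.4, 48.2 and 68.0 CPM to 26.0, 29.8, 33.7 and 35.1 CPM. clec-65 thus ended above each of its -2 h libraries and clec-66 below each of them. By the tests, clec-65 rose from 0 to 12 h (log2 change 1.18, SE 0.15, FDR = 9.78e-09) while clec-66 fell (-1.45, SE 0.26, FDR = 6.98e-06). clec-62 was at 28.8, 24.6, 11.03 and 29.8 CPM at -2 h and at 168, 181, 128 and 171 CPM at 192 h, when clec-64 was at or below 0.415 CPM. From 192 to 288 h clec-62, clec-63, clec-65 and clec-66 were all lower, by log2 changes of -1.08, -1.65, -1.27 and -1.19, and clec-64 did not pass the test (0.66, FDR = 0.358).

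clec-16, clec-15, clec-13 and clec-14 on chromosome I, also in this order, behaved alike. All 4 had their highest mean at 6 h, and r between neighbours was 0.96, 1.0 and 0.96. At 6 h clec-13 stood at 74.2, 101, 72.1 and 92.8 CPM and clec-15 at 74.0, 107, 66.96 and 92.6 CPM. The current annotation lists clec-14 and clec-16 as pseudogenes, at 27.2, 29.96, 29.4 and 25.7 CPM and 23.5, 31.8, 31.1 and 28.8 CPM. Counting per gene can split reads between near-identical copies, and whether either pair shares reads was not tested. The levels of these 4 genes are therefore uncertain as single genes.

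Other neighbours fell between these patterns. clec-49 and clec-50 had r of 0.98, with highest means at 4 and 6 h. clec-83 and clec-84 had r of -0.57. clec-83 fell from 24 to 192 h from 24.3 ± 3.74 to 7.51 ± 2.54 CPM (log2 change -1.69), while clec-84 rose from 78.6 ± 5.26 to 112 ± 5.74 CPM (0.51, FDR = 0.00775). The longest run, 13 genes on chromosome V from clec-40 to clec-24, met the level rule throughout, but only clec-37 in it had a mean of at least 10 CPM.

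**Figure D5:**
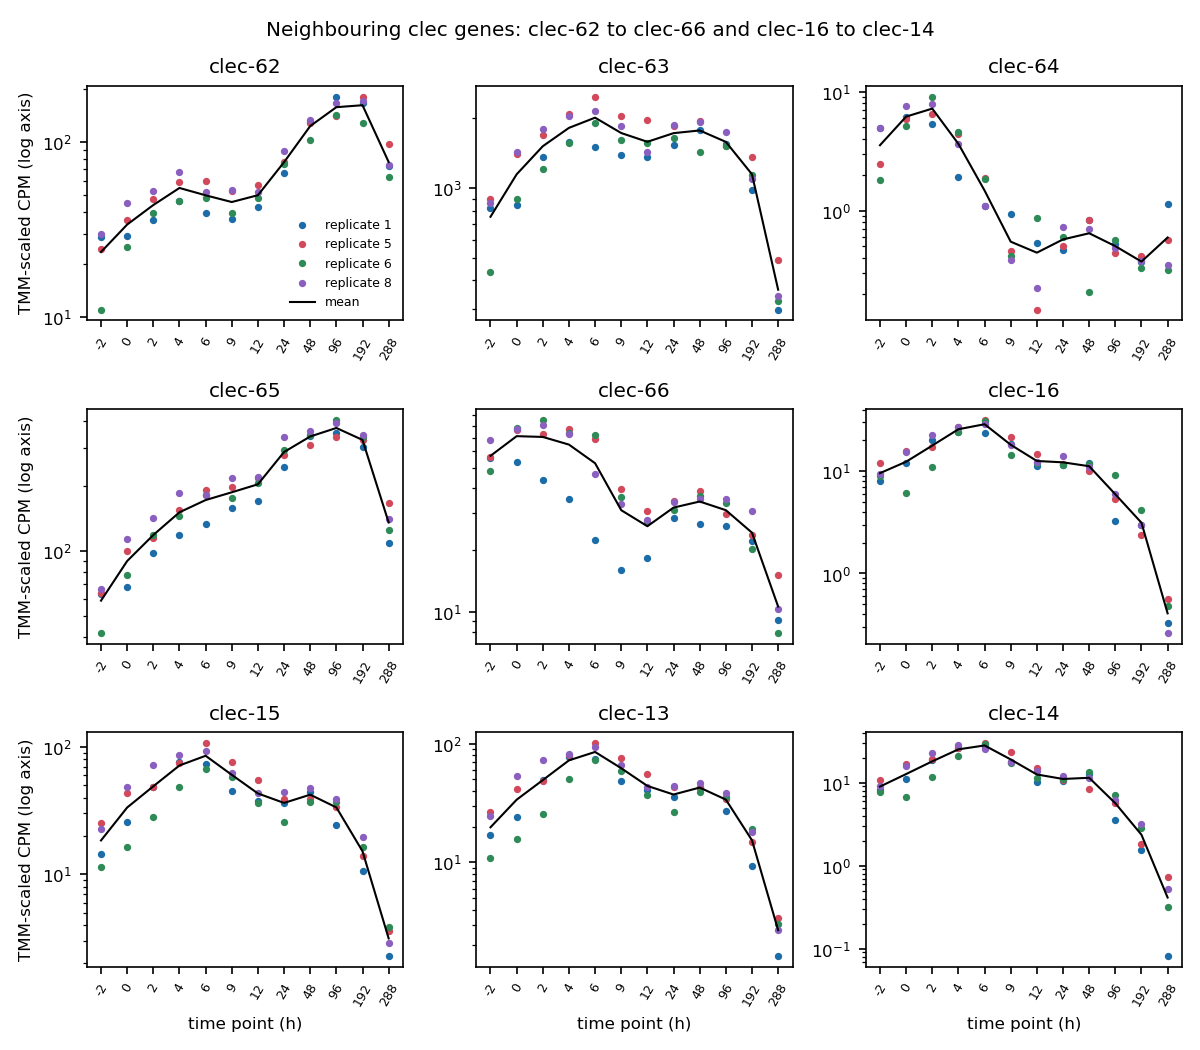
TMM-scaled CPM (log axis, a different range in each panel) of the neighbouring genes clec-62 to clec-66 and of clec-16, clec-15, clec-13 and clec-14 at the 12 time points in hours; points are the 4 replicates and the line is their mean. The first group has its highest means at 192, 6, 2, 96 and 0 h, and all 4 genes of the second group have theirs at 6 h.

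Genes of the family that earlier work has tied to infection were listed from general knowledge with earlier results of these data known. Of the 18 listed, 16 were kept, and they did not move as a block. In the order of the 5 comparisons, 5, 4, 1, 1 and 0 were higher and 0, 4, 0, 9 and 11 were lower. Among all genes the shares were 11.5, 22.2, 4.26, 19.4 and 7.38% higher and 12.3, 23.3, 5.3, 20.3 and 17.4% lower. Of the clec genes with a mean of at least 10 CPM, 69.2% were lower in 192 h against 24 h and 66.7% in 288 h against 192 h. Whether the listed genes differ from the rest of the family was not tested. The median log2 changes of the listed genes were 0.35, -0.13, 0.04, -1.19 and -1.07.

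clec-67 and clec-85, whose expression in the intestine is known to depend on the p38 kinase PMK-1, took different courses. clec-67 was at 67.9, 94.1, 80.5 and 106 CPM at 0 h and at 13.6, 27.1, 21.3 and 19.7 CPM at 12 h (log2 change -2.09, SE 0.24, FDR = 1.01e-09). It fell again from 24 to 192 h, to 3.88 ± 2.08 CPM (-1.92, FDR = 4.94e-07). clec-85 was at 57.2, 75.0, 60.8 and 82.1 CPM at 0 h and at 59.4, 63.3, 59.4 and 64.2 CPM at 12 h, and it reached 101 CPM at 96 h. Its first called fall came from 192 to 288 h, from 61.6 ± 10.8 to 19.2 ± 4.47 CPM (-1.68, SE 0.18, FDR = 4.75e-10).

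clec-60, which is induced by Staphylococcus aureus and used as a reporter of that response, did not pass the test in any of the 5 comparisons (FDR from 0.274 to 0.943). Its level was very low, with a mean of 0.446 CPM and over 1 CPM in exactly 4 libraries, so these tests could show little. clec-52, tied to the same infection, rose in both of the first comparisons and then fell from 10.7 ± 1.27 CPM at 24 h to 2.58 ± 0.261 CPM at 192 h (log2 change -2.05, FDR = 1.05e-08). clec-50 did not pass the test in the first 3 comparisons and fell afterwards, to 30.9 ± 8.90 CPM at 192 h (-2.24, FDR = 4.04e-09) and to 6.87 ± 1.92 CPM at 288 h (-2.16, FDR = 2.24e-07). clec-17 rose from 0 to 12 h (0.46, FDR = 0.0278) and had its highest mean, 171 CPM, at 48 h. It too was lower at 192 h than at 24 h (-0.60, FDR = 0.00406). It fell further by 288 h, to 46.7 ± 9.86 CPM (-1.23, FDR = 3.94e-07). clec-7 was the only listed gene called higher at 192 h than at 24 h. clec-70, also very low with a mean of 0.416 CPM, likewise passed no test. clec-41, clec-49, clec-71 and clec-86 were lower at 288 h than at 192 h (log2 changes -1.0, -0.94, -1.38 and -1.36). Of these, clec-41, clec-49 and clec-86 were already lower at 192 h than at 24 h (-1.07, -1.76 and -1.31), and clec-71 did not pass that test.

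clec-38, which acts in axon guidance by netrin, was low, with means of 1.16 ± 0.321 CPM at -2 h, 1.03 ± 0.530 at 0 h and 0.208 ± 0.141 at 12 h. Its fall from 0 to 12 h passed the test (log2 change -2.24, SE 0.62, FDR = 0.00263). However, clec-38 exceeded 1 CPM in exactly 4 libraries and was highest at -2 h. Inclusion thus favoured a high early level, and the fall is a description only.

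Other lectins and antimicrobial genes are given beside the family by their counts, to be read against the same shares of all genes. The lists are small, and no difference between them was tested. Of 12 galectins (lec genes, lectins of a different fold that bind galactosides), in the order of the 5 comparisons, 7, 2, 0, 4 and 0 were higher and 0, 8, 5, 6 and 5 lower. lec-7 rose from 3.24 ± 0.869 CPM at 24 h to 23.5 ± 11.1 CPM at 192 h. Of 11 lysozymes kept, enzymes that cut bacterial cell walls, 1, 2, 0, 3 and 0 were higher and 0, 7, 2, 7 and 2 lower. lys-1 fell from 327 ± 60.3 CPM at 0 h to 40.3 ± 13.6 CPM at 12 h.

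Of the 20 saposin-like genes kept (spp genes, some encoding pore-forming antimicrobial proteins), 7, 11, 3, 2 and 1 were higher and 2, 4, 2, 6 and 8 lower. spp-23 fell from 31.02 ± 6.005 CPM at 0 h to 0.548 ± 0.147 CPM at 12 h (log2 change -5.81, FDR = 1.06e-13). Of 14 epidermal antimicrobial peptide genes kept (nlp and cnc genes), 8, 2, 0, 0 and 0 were higher and 1, 5, 0, 11 and 2 lower. nlp-28 fell from 28.6 ± 1.75 CPM at 24 h to 2.94 ± 0.638 CPM at 192 h. Of 14 immune regulators, 3, 5, 1, 8 and 2 were higher and 0, 3, 2, 1 and 2 lower. sek-1, the kinase upstream of PMK-1, rose from 95.7 ± 9.42 CPM at 0 h to 264 ± 19.8 CPM at 12 h, and pmk-1 itself, named after its values were seen, was higher at 192 h than at 24 h (log2 change 0.41, FDR = 0.000126).

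Tissue markers did not move one way over the late time points. The 8 intestine markers summed to 3355 to 3615 CPM per library at 24 h, 1195 to 1363 CPM at 192 h and 372 to 573 CPM at 288 h, with none higher and 7 and then 5 lower. elt-2, the defining intestinal transcription factor, was 14.5 ± 2.496 CPM at 24 h, 10.5 ± 1.23 CPM at 192 h and 7.62 ± 1.69 CPM at 288 h. The 4 body wall muscle markers kept had mean sums of 13810, 3540 and 1091 CPM at these times, with 3 and then 4 lower. Pharynx markers summed to 5901, 4556 and 927 CPM, with 1 higher and 1 lower by 192 h and all 5 lower by 288 h.

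Other marker lists went either way from 24 to 192 h. Both coelomocyte markers were higher at 192 h, with mean sums of 18.6 CPM at 24 h, 36.5 at 192 h and 27.1 at 288 h, where 1 was lower. Neuron markers summed to 798, 946 and 850 CPM, with 1 of 5 higher at 192 h and none called at 288 h. Epidermis markers summed to 121, 90.5 and 90.8 CPM, with 2 of 5 and then 1 lower, and germline markers to 67.9, 53.3 and 55.8 CPM, with 2 of 5 and then none lower. The part of tissue RNA in the falls of clec genes was not tested.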

How the data were processed

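The deposited values were raw counts per gene, 1 table per library. Per the study's methods, the authors mapped single-end reads of 50 bp with bowtie to release WS210 of the genome, reporting 1 location and dropping reads with more than 2, and counted them per gene with HTSeq. Versions and strand mode are not given in the sources used here, so near-identical copies and overlapping genes are uncertain. The 5 summary entries of each table (21.1 to 29.7% of a library's entries) were left out. Libraries then held 10164115 to 15962842 counts, so 1 CPM was at least 10 counts.

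Symbols and gene order came from RefSeq (WBcel235), matched by sequence name, with Ensembl symbols for genes not found there. Exon lengths came from the Ensembl annotation of WBcel235. No coordinates are printed, since the builds differ. The filter, 1 CPM exceeded in 4 or more libraries, follows the threshold in the study's methods, but the number of genes kept here (16987) is not the study's number. TMM scaling and all main tests used edgeR 4.0.16 in R 4.3.3: a likelihood ratio test over the 12 time points and quasi-likelihood F tests for pairs, in 1 fit of all 48 libraries. Time point was the only factor, with no block for the replicate number, so the main tests ignored the pairing described below. Each SE was derived from the log2 change and its F statistic. A group with no more than 3 counts in any library was treated as at the floor. The fits were tested on simulated counts, for 12 h against 0 h. These were drawn without shared cultures, so that test cannot speak to effects of culture.

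The members, lists and tests were chosen with earlier results of these data known. Genes named were, per comparison, up to 5 rises and 5 falls with an FDR under 0.05, 4 of 4 replicates in 1 direction and a mean of at least 2 CPM, plus the 6 most abundant per kb, the infection list, clec-38 and up to 2 genes per other list and comparison. Alternatives were other scalings, DESeq2 1.42.0, other filters, the replicate block, leaving out each replicate or both ribosomal-RNA-rich libraries, and fits of a pair of time points alone.

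Replicate numbers pair the libraries through shared cultures, per the study's methods for all but 1 replicate, whose number is not given. After time means were removed, same-numbered libraries had a median correlation of 0.213 over genes, and others -0.0750. Removing the means makes the others offset the same-numbered ones, so the second value is no separate measure. The lowest same-numbered pair was 0.0491 for 0 h against -2 h, 0.269, 0.254, 0.0915 and 0.202 in the other comparisons, and 45 of 48 libraries correlated best with their own number.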

Additional observations from a re-analysis of the deposited data

Results flagged for a closer look

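In each group of 4 libraries behind a named value, the gap of the highest or lowest library to its neighbour was divided by the range of the group. It exceeded Dixon's 95% critical value in 4 of 97 groups, where chance alone passes about 1 in 20. clec-4 at 0 h had a ratio of 0.911, with 13.04 CPM in replicate 1 and 32.5 to 34.4 CPM in the others. clec-1 at 12 h had 0.831, with 199 CPM in replicate 1 and 329 to 356 CPM in the others. clec-76 at 192 h had 0.902, with 3.34 CPM in replicate 1 and 5.34 to 5.56 CPM in the others. clec-221 at 24 h had 0.907, with 3.499 CPM in replicate 8, a library rich in ribosomal RNA, and 1.42 to 1.62 CPM in the others.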

How the results depend on the processing

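Of the 47 named changes, 37 kept direction and call under each alternative run for them, 10 lost the call under at least 1, and none reversed. These were 13 alternatives, except that a filter at a mean of 10 CPM tested only 41 clec genes and gave no value for the lower named ones, 590 values in all. Over all time points it called 41; higher and lower calls were then 16 and 1, 11 and 13, 6 and 5, 6 and 31, and 0 and 24 in the order of the comparisons. For 0 h against -2 h, higher calls were 4 without both ribosomal-RNA-rich libraries, 8 from these time points alone and 6 to 23 when 1 replicate was left out. For 24 h against 12 h they were 12 with the replicate block, 11 from these time points alone, 1 to 5 without 1 replicate, and 2 (with 16 lower) without scaling factors. For 288 h against 192 h, higher calls were 8 with the replicate block, 2 without a filter, 3 from these time points alone and 1 to 3 without 1 replicate. The replicate block moved no other count by over 1.5 times and ended no named call. The quasi-likelihood test called 117 genes over all time points. Without scaling factors the median of all genes moved to 0.17, -0.14, -0.21, -0.14 and 0.21 in that order, and with upper-quartile factors to 0.13 for 288 h against 192 h. Of the 75 genes with a mean under 2 CPM, 1, 16, 1, 6 and 2 were called in the order of the comparisons, and the part of their low counts was not tested.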
